A study of Rattus norvegicus with 6 samples.

Results

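The myomiRs, miRNAs made mainly in striated muscle, were followed in exosomes of rat bone marrow MSCs. They were taken by name and not by a rule on level or change, though with earlier results of these data known. They are 10 mature arms of miR-1, miR-133a, miR-133b, miR-206, miR-208a, miR-208b and miR-499. All 10 are among the 749 miRNAs of the deposited count table. MSCTXL-Exo are exosomes shed by MSCs that had been given 400 μg/mL of TXL (Tongxinluo, a Chinese medicine compound) for 24 h, and MSC-Exo are exosomes of MSCs that were not given TXL. The donor animals of both groups were male Sprague-Dawley rats, the cells were grown with fetal bovine serum, and medium with exosome-free serum was used for collection. Each group has 3 libraries, which the count table numbers 10, 12 and 13. The sources used here say neither what the numbers mark nor that separate cultures stand behind the 3 libraries, so each p-value covers the spread among these libraries alone. The cells of origin are stromal and not muscle, and how much of the RNA came from vesicles rather than other particles of the pellet was not measured here.

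A miRNA is a short RNA that guides the silencing of messenger RNAs, mostly by pairing through its seed, bases 2 to 8. The muscle miRNAs come from a few loci that are switched on with muscle genes. miR-1 and miR-133a share a primary transcript and are abundant in heart and skeletal muscle, where miR-1 promotes differentiation and miR-133 holds back serum response factor. miR-206 and miR-133b share another transcript, and miR-206 is known from skeletal muscle, where in mouse it supports regeneration by restraining factors such as Pax7. miR-208a, miR-208b and miR-499 lie in myosin heavy chain genes and in mouse regulate which myosins the heart and slow muscle make.

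The mature sequences of 9 of the 10 members were found in RefSeq (build GRCr8), and they are shown because the seeds set which members could act on the same targets and how easily their reads could be confused. Capitals mark the seed. The first group has the seed of the miR-1 family and includes the close relative miR-1b:
rno-miR-206-3p: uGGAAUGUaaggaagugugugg
rno-miR-1-3p: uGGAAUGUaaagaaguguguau
rno-miR-1b: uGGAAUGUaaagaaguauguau
The second group has the miR-133 seed:
rno-miR-133a-3p: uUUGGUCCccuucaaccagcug
rno-miR-133b-3p: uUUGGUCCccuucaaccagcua
The third group holds the myosin miRNAs, in which miR-208a-3p and miR-208b-3p share a seed and miR-499-5p has a similar one of its own:
rno-miR-208a-3p: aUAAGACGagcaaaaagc
rno-miR-208b-3p: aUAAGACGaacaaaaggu
rno-miR-499-5p: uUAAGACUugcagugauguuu
The remaining arms with a sequence come from the other side of the miR-1 and miR-133a hairpins:
rno-miR-1-5p: gCACAUACuucuuuauguaccc
rno-miR-133a-5p: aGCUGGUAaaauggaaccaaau

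Counted from the 5′ end, with the base of miR-1-3p first, miR-206-3p differs by A11G, A21G and U22G, and miR-1b by G17A. miR-133b-3p differs from miR-133a-3p only by G22A, its last base. miR-208b-3p differs from miR-208a-3p by G10A, A16G and C18U. How the authors assigned reads that fit 2 such sequences is not given in the sources used here, so the split of the few counts within the miR-133 pair and between miR-1-3p and miR-1b is uncertain. rno-miR-133c, a relative on the opposite strand, is over its whole length of 21 bases the reverse complement of miR-133a-3p and was counted 4 times in all libraries. The table places it on the forward strand and counts it apart from miR-133a-3p, which had 24 UMIs in all libraries. How strand was used in assigning these few reads is not given in the sources used here.

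The table places miR-206-3p on chromosome 9 from 26791814 to 26791835 and miR-133b-3p from 26795696 to 26795717, both on the forward strand. The mature miR-133a-3p (2052492 to 2052513) and miR-1-3p (2054945 to 2054966) are on the reverse strand of chromosome 18. The reverse strand of chromosome 15 carries miR-208a-3p (33613467 to 33613484) and miR-208b-3p (33639543 to 33639560), and the forward strand of chromosome 3 carries miR-499-5p (151138866 to 151138886). The table does not name its genome build. In the GRCr8 annotation Mir206 and Mir133b lie within 1 long noncoding RNA, LOC120094648. Mir1 and Mir133a1 lie within the span of Mib1, a ubiquitin ligase of Notch signaling. Mir208a lies within Myh6, Mir208b within Myh7 and Mir499a within Myh7b, all myosin heavy chain genes.

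Library totals were 382665 to 1792805 UMIs (unique molecular identifiers, tags by which PCR copies of 1 molecule are counted once) in MSCTXL-Exo and 453812 to 1000585 UMIs in MSC-Exo, and were larger at each higher number. Levels are given in CPM (counts relative to the library total, after scaling by edgeR's TMM factor for composition). A UMI stands for 1 whole mature molecule, so no length correction applies. A count of 0 allows up to 1.94 to 7.48 CPM in MSCTXL-Exo and 3.24 to 5.79 CPM in MSC-Exo (3 UMIs). These limits are a fixed rule of 3 UMIs, while all intervals below are 95% exact Clopper-Pearson intervals. For 0 UMIs the exact upper end is higher, as with 9.20 CPM in MSCTXL-Exo library 10. Both cover counting error only. In this cargo 6 miRNAs abundant in mesenchymal cells had a summed level of 280343 to 346175 CPM in MSCTXL-Exo and 246095 to 334484 CPM in MSC-Exo.

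Of the muscle miRNAs, miR-206-3p was by far the most abundant in every library. It ranked 96 of 749 by mean level and held 82.6% to 96.2% of the UMIs of all members in each of the 6 libraries. Summed, the members had 152, 581 and 251 CPM in MSCTXL-Exo libraries 10, 12 and 13, against 467, 791 and 851 CPM in MSC-Exo libraries 10, 12 and 13. They made up 0.0159% to 0.0590% of a library's UMIs in MSCTXL-Exo and 0.0533% to 0.0816% in MSC-Exo. Without miR-206-3p the other 9 members together had 24.9, 95.3 and 29.8 CPM in MSCTXL-Exo, against 81.0, 49.2 and 32.4 CPM in MSC-Exo. The groups overlapped in both sums.

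**Figure D1:**
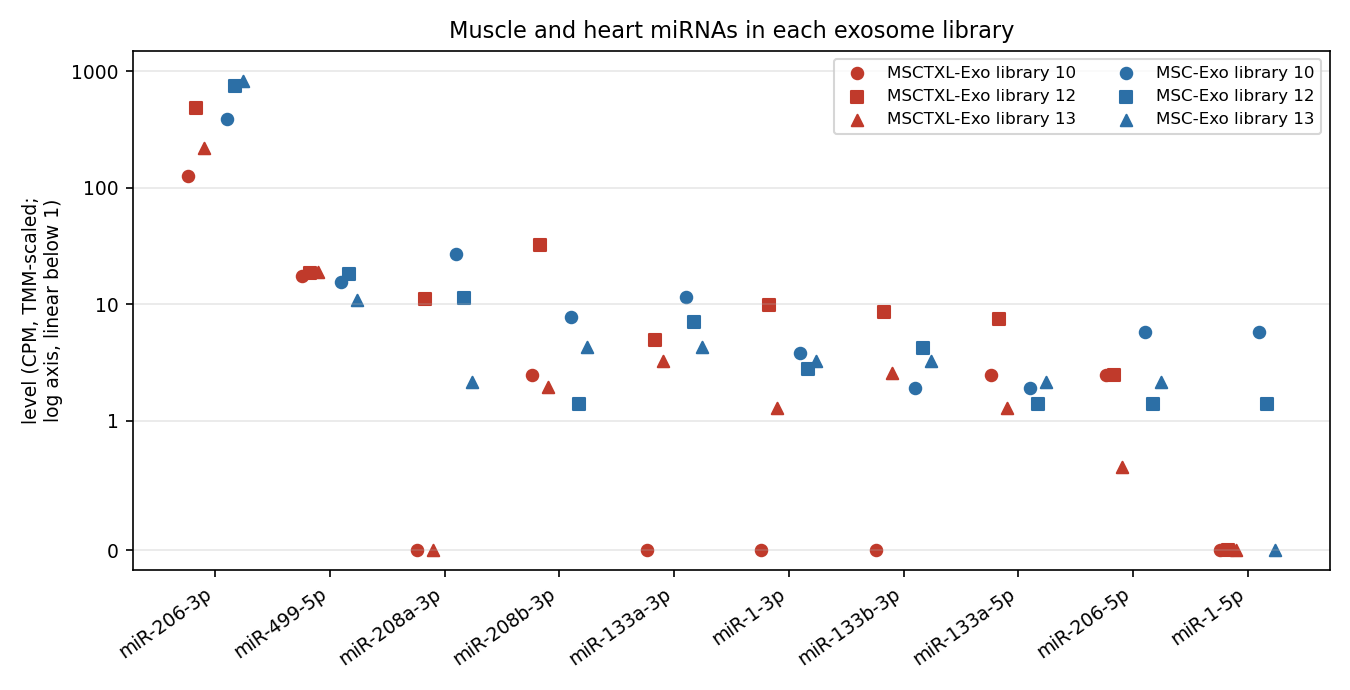
Level of each of the 10 muscle and heart miRNAs (CPM, log axis that is linear below 1) in each library of MSCTXL-Exo (red, left) and MSC-Exo (blue, right), with the marker shape giving the library number. miR-206-3p lies at 127 to 819 CPM, whereas no other member exceeds 32.2 CPM in any library, and miR-1-5p is at 0 in all MSCTXL-Exo libraries.

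By mean level the order was miR-206-3p, miR-499-5p, miR-208a-3p, miR-208b-3p, miR-133a-3p, miR-1-3p, miR-133b-3p, miR-133a-5p, miR-206-5p and miR-1-5p. The lowest library for miR-206-3p, at 127 CPM, lay above the highest value of any other member, 32.2 CPM. From miR-499-5p downward each member overlapped the next in its range over the 6 libraries, so their order among themselves is not set beyond that spread. For comparison, the median miRNA of the table had a mean of 16.4 CPM.

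miR-206-3p had a lower mean in MSCTXL-Exo, a difference that passed the test only when the library number was taken into account or in some other settings. It was counted 51, 392 and 341 times in MSCTXL-Exo libraries 10, 12 and 13, against 200, 528 and 758 times in MSC-Exo libraries 10, 12 and 13. As levels these are 127, 485 and 221 CPM in MSCTXL-Exo, against 386, 742 and 819 CPM in MSC-Exo. The groups overlapped, because MSCTXL-Exo library 12 lay above MSC-Exo library 10. The means were 278 ± 186 CPM in MSCTXL-Exo and 649 ± 231 CPM in MSC-Exo (SD, n = 3 each). An exact two-sided permutation test of the levels gave p = 0.2, where 3 libraries against 3 cannot go under 0.1. The log2 fold change was -1.22 (standard error 0.55), 2.33-fold lower, with an unadjusted p = 0.0589 and an adjusted p = 0.972 (edgeR quasi-likelihood, Benjamini-Hochberg). It therefore did not pass the pair of thresholds named in the study's methods, a change of over 2-fold and a p, taken here as unadjusted, below 0.05.

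Within each library number the level was lower in MSCTXL-Exo. The ratio of MSCTXL-Exo to MSC-Exo was 0.330 for number 10 (counting interval 0.237 to 0.450), 0.654 for number 12 (0.572 to 0.747) and 0.270 for number 13 (0.237 to 0.307). The mean log2 ratio was -1.37 ± 0.67 (SD, n = 3 numbers). Of the 392 miRNAs tested, 18.4% were lower in MSCTXL-Exo within all 3 numbers. After subtraction of group means, libraries of equal number correlated over the tested miRNAs at 0.431 (10), 0.166 (12) and 0.692 (13). MSCTXL-Exo library 12 correlated more with MSC-Exo library 10 (0.344), and no label says that the number pairs libraries. The number was also used as a replicate block, a pairing that thus rests on these same data. With the block, miR-206-3p passed both thresholds, with a log2 fold change of -1.36 (standard error 0.33) or 2.58-fold lower, an unadjusted p = 0.00476 and an adjusted p = 0.207 (edgeR quasi-likelihood, Benjamini-Hochberg). It ranked 9 of the 392 by unadjusted p in that comparison. Number and depth go together in these libraries and cannot be told apart.

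**Figure D2:**
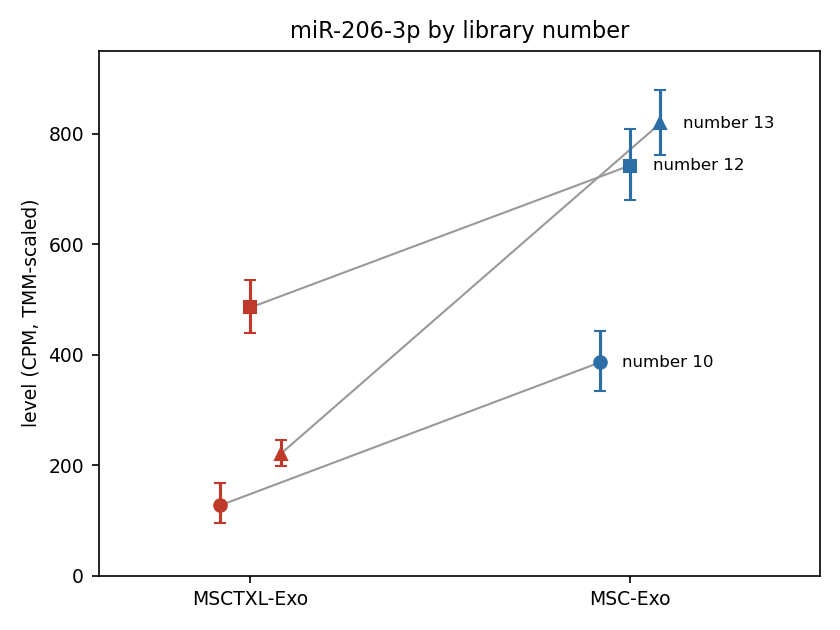
Level of miR-206-3p (CPM, linear axis) in MSCTXL-Exo (left) and MSC-Exo (right), with 95% exact counting intervals as bars and lines joining libraries of the same number. All 3 lines run from a lower value in MSCTXL-Exo to a higher one in MSC-Exo, with the smallest gap for number 12 (485 against 742 CPM).

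The size of the difference and its call depended on single libraries. Without MSCTXL-Exo library 12 the log2 fold change of miR-206-3p was -1.92, and without MSC-Exo library 10 it was -1.51, and in both cases it passed both thresholds without any block, with adjusted p = 0.996 and adjusted p = 0.998 from edgeR. Without MSCTXL-Exo library 10 it was -0.87, under a 2-fold change. With the block and without both libraries numbered 13 it was -1.14 and did not pass (adjusted p = 0.550 from edgeR).

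Of the 10 members, 2 passed edgeR's filter on low counts, miR-206-3p and miR-499-5p, and 0 of these 2 passed both thresholds, beside 3.57% of all 392 tested miRNAs (14, of which 7 higher and 7 lower). By the Benjamini-Hochberg adjusted p under 0.05, 0 of the 2 and 0% of all tested miRNAs were called by edgeR, 14 had an unadjusted p under 0.05, and DESeq2 and limma-voom also called 0. With the replicate block, 1 of the 2 passed both thresholds, miR-206-3p, beside 7.4% of all tested miRNAs in either direction and 5.87% lower in MSCTXL-Exo. The adjusted p with the block called 0 of the 2 and 0.255% of all, or 1 miRNA, while 42 had an unadjusted p under 0.05. A member that passed the filter did so on its level in most libraries, so these counts say nothing of the other 8.

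**Figure D3:**
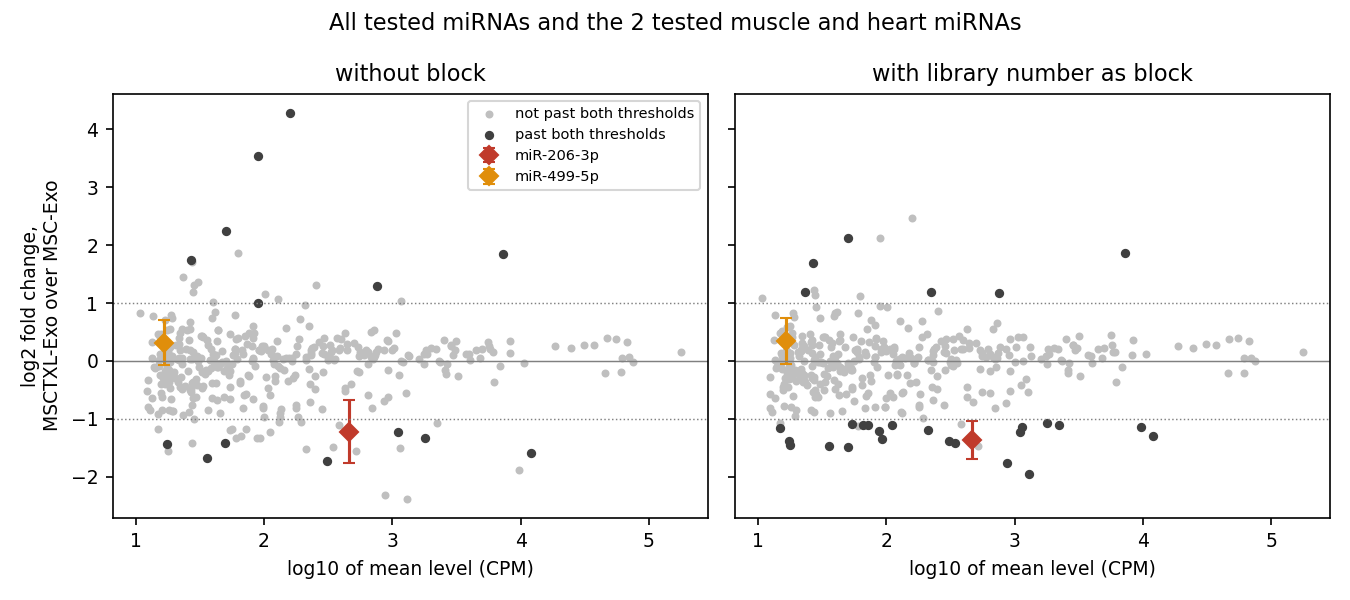
Log2 fold change of MSCTXL-Exo over MSC-Exo against log10 mean level (CPM) for the 392 tested miRNAs, without (left) and with (right) the library number as a block. Dark points passed both thresholds, dotted lines mark 2-fold, and bars on miR-206-3p (red) and miR-499-5p (orange) are standard errors. miR-206-3p lies at -1.22 and -1.36, miR-499-5p at 0.31 and 0.35.

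The other arm of the miR-206 hairpin, rno-miR-206-5p, had 1, 2 and 1 UMIs in MSCTXL-Exo libraries 10, 12 and 13, against 3, 1 and 2 UMIs in MSC-Exo libraries 10, 12 and 13. The 3p arm thus held 99.5% of the hairpin's UMIs in MSCTXL-Exo (interval 98.7% to 99.9%) and 99.6% in MSC-Exo (99.1% to 99.9%). Its locus partner miR-133b-3p, which falls in the same long noncoding RNA, was near the counting floor. miR-206-3p made up 98.6% of the UMIs of the pair in MSCTXL-Exo (795 UMIs, interval 97.5% to 99.3%) and 99.5% in MSC-Exo (1493 UMIs, interval 99.0% to 99.8%). The seed of the miR-1 family was carried by 3 miRNAs of the table with a RefSeq sequence, and miR-206-3p held 98.7% of their 2299 UMIs over all libraries, while miR-1-3p held 0.740% and miR-1b 0.522%.

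miR-1-3p, an abundant miRNA of heart muscle, was hardly present. It was counted 0, 8 and 2 times in MSCTXL-Exo libraries 10, 12 and 13, against 2, 2 and 3 times in MSC-Exo libraries 10, 12 and 13. This is 3.73 ± 5.38 CPM in MSCTXL-Exo and 3.30 ± 0.53 CPM in MSC-Exo (SD, n = 3 each), and an exact two-sided permutation test gave p = 1. Without MSCTXL-Exo library 12 the MSCTXL-Exo mean was 0.65 CPM. Only MSCTXL-Exo library 12, at 9.91 CPM (interval 4.28 to 19.5), had a level whose interval lay above the floor of its library, 3.71 CPM. Its other arm, miR-1-5p, had 0 UMIs in all MSCTXL-Exo libraries, against 3, 1 and 0 UMIs in MSC-Exo libraries 10, 12 and 13. Both groups are at or under the floor of 3 UMIs per library there, so no fold is given. The relative rno-miR-1b had 2, 1 and 1 UMIs in MSCTXL-Exo, against 4, 2 and 2 UMIs in MSC-Exo.

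miR-133a-3p and miR-133b-3p were also counted only a few times each. miR-133a-3p had 0, 4 and 5 UMIs in MSCTXL-Exo libraries 10, 12 and 13, against 6, 5 and 4 UMIs in MSC-Exo libraries 10, 12 and 13. The levels were 2.73 ± 2.51 CPM in MSCTXL-Exo and 7.64 ± 3.67 CPM in MSC-Exo (SD, n = 3 each; exact two-sided permutation test, p = 0.2). The groups overlapped, with MSC-Exo library 13 (4.32 CPM) under MSCTXL-Exo library 12 (4.95 CPM), and the 0 of MSCTXL-Exo library 10 allows up to 7.48 CPM. miR-133b-3p had 0, 7 and 4 UMIs in MSCTXL-Exo, against 1, 3 and 3 UMIs in MSC-Exo (exact two-sided permutation test over 3 libraries each, p = 0.9). Its MSCTXL-Exo mean of 3.75 CPM, against 3.13 CPM in MSC-Exo, was 1.29 CPM without MSCTXL-Exo library 12. The 5p arm miR-133a-5p had 1, 6 and 2 UMIs in MSCTXL-Exo, against 1, 1 and 2 UMIs in MSC-Exo. Its sister rno-miR-133b-5p had 3, 1 and 6 UMIs in MSCTXL-Exo, against 1, 1 and 3 UMIs in MSC-Exo. The miR-133 seed had 42 UMIs in all 6 libraries together, 57.1% of them miR-133a-3p and 42.9% miR-133b-3p. With so few UMIs, and an exact permutation test that cannot go under 0.1 with 3 libraries each, a difference was not detectable for either.

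The heart-specific miR-208a-3p and its slow-muscle counterpart miR-208b-3p had their highest levels in different libraries. miR-208a-3p was counted 0, 9 and 0 times in MSCTXL-Exo libraries 10, 12 and 13, against 14, 8 and 2 times in MSC-Exo libraries 10, 12 and 13. Its highest level was 27.0 CPM (interval 14.8 to 45.3) in MSC-Exo library 10, while MSCTXL-Exo library 13, the deepest, had none, which allows 1.94 CPM. The groups overlapped, with 3.71 ± 6.43 CPM in MSCTXL-Exo and 13.5 ± 12.6 CPM in MSC-Exo (SD, n = 3 each; exact two-sided permutation test, p = 0.2). miR-208b-3p had 1, 26 and 3 UMIs in MSCTXL-Exo, against 4, 1 and 4 UMIs in MSC-Exo. MSCTXL-Exo library 12 had 32.2 CPM of it (interval 21.0 to 47.2), above the 1.41 to 7.72 CPM of the other 5 libraries. The means of 12.2 ± 17.3 CPM in MSCTXL-Exo and 4.48 ± 3.16 CPM in MSC-Exo (SD, n = 3 each) did not differ beyond that spread (exact two-sided permutation test, p = 0.8). Without MSCTXL-Exo library 12 the MSCTXL-Exo mean of miR-208b-3p was 2.22 CPM, under that of MSC-Exo, and miR-208a-3p had no UMI left in MSCTXL-Exo.

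The 2 miR-208 members share their seed, and it was carried by no other miRNA of the table with a RefSeq sequence. Of its 72 UMIs, 45.8% were miR-208a-3p and 54.2% miR-208b-3p. The opposite arms, which are no members, were counted 47 times for miR-208a and 16 times for miR-208b over all libraries. rno-miR-208a-5p had 4, 13 and 10 UMIs in MSCTXL-Exo, against 11, 4 and 5 UMIs in MSC-Exo, and rno-miR-208b-5p had 0, 4 and 4 UMIs in MSCTXL-Exo, against 2, 3 and 3 UMIs in MSC-Exo. In MSCTXL-Exo library 13 the miR-208a hairpin was counted 10 times and always as the 5p arm.

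miR-499-5p was low but even across the libraries. It was counted 7, 15 and 29 times in MSCTXL-Exo libraries 10, 12 and 13, against 8, 13 and 10 times in MSC-Exo libraries 10, 12 and 13. As levels these are 17.5, 18.6 and 18.8 CPM in MSCTXL-Exo, against 15.4, 18.3 and 10.8 CPM in MSC-Exo. The groups touched, as MSC-Exo library 12 lay above MSCTXL-Exo library 10. Its log2 fold change of 0.31 (standard error 0.39) had an adjusted p = 0.992 in edgeR, and that of 0.35 (standard error 0.40) with the replicate block an adjusted p = 0.838. Its opposite arm rno-miR-499-3p had 4, 13 and 25 UMIs in MSCTXL-Exo, against 5, 7 and 9 UMIs in MSC-Exo. That is 9.97, 16.1 and 16.2 CPM in MSCTXL-Exo, against 9.64, 9.84 and 9.72 CPM in MSC-Exo. The groups did not overlap, though MSCTXL-Exo library 10 lay only just above MSC-Exo library 12, and these values rest on 4 and 7 UMIs. An exact two-sided permutation test gave p = 0.1, the smallest that 3 libraries against 3 allow. Of all 749 miRNAs, 7.08% had non-overlapping groups, and of the 10 members 0 had.

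The miR-206 hairpin was counted almost wholly as its named arm, and most others as both arms. miR-499-5p, the arm usually taken as the functional one, held 54.8% of its hairpin's 93 UMIs in MSCTXL-Exo (interval 44.2% to 65.2%) and 59.6% of 52 UMIs in MSC-Exo (45.1% to 73.0%). miR-133a-3p held 50% of 18 UMIs in MSCTXL-Exo (26.0% to 74.0%) and 78.9% of 19 in MSC-Exo (54.4% to 93.9%). miR-208a-3p held 25% of 36 UMIs in MSCTXL-Exo (12.1% to 42.2%) and 54.5% of 44 in MSC-Exo (38.8% to 69.6%). miR-208b-3p held 78.9% of 38 UMIs in MSCTXL-Exo (62.7% to 90.4%), with 26 of its 30 UMIs from library 12, and 52.9% of 17 in MSC-Exo (27.8% to 77.0%). miR-133b-3p held 52.4% of 21 UMIs in MSCTXL-Exo (29.8% to 74.3%) and 58.3% of 12 in MSC-Exo (27.7% to 84.8%). miR-1-3p held 100% of only 10 UMIs in MSCTXL-Exo (69.2% to 100%) and 63.6% of 11 in MSC-Exo (30.8% to 89.1%), so in MSCTXL-Exo its interval included the share of miR-206-3p. Within each hairpin the intervals of the groups overlapped. The intervals treat the summed UMIs of 3 libraries as 1 sample and leave out the spread between libraries, so no test was made.

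**Figure D4:**
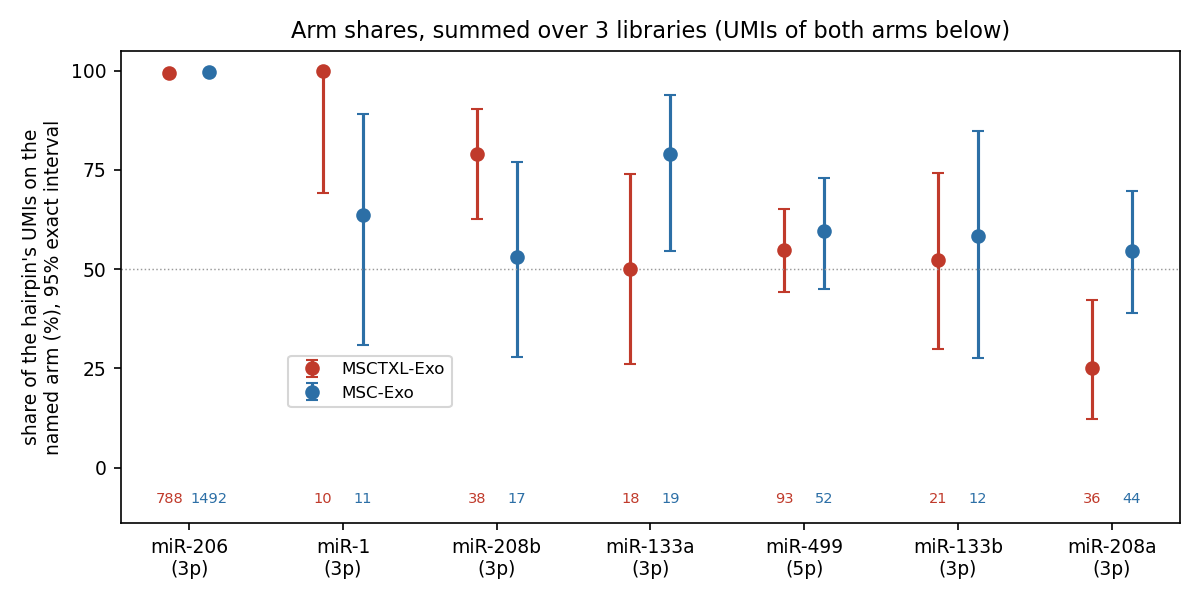
Share of a hairpin's UMIs on the named arm (percent), summed over the 3 libraries of MSCTXL-Exo (red, left) and MSC-Exo (blue, right), with 95% exact counting intervals and the UMIs of both arms printed below. miR-206 lies at 99.5% and 99.6%, whereas miR-499 lies at 54.8% and 59.6% and miR-208a at 25% and 54.5%.

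Among the 8 members under the filter, which had at most 26 UMIs in any library, the highest level was always in MSCTXL-Exo library 12 (4 members: miR-1-3p, miR-133a-5p, miR-133b-3p and miR-208b-3p) or in MSC-Exo library 10 (4 members: miR-1-5p, miR-133a-3p, miR-206-5p and miR-208a-3p). Among all 357 miRNAs under the filter, 22.7% were highest in MSCTXL-Exo library 12 and 38.9% in MSC-Exo library 10, so both libraries lead many of the table's rarest miRNAs. MSCTXL-Exo library 10, the shallowest, had 0 UMIs for 5 of the 10 members. With no filter on low counts all 10 could be tested, and 1, miR-206-3p, passed both thresholds (log2 fold change -1.27), beside 4.54% of 749. With the block and no filter 2 did, miR-206-3p (-1.38) and miR-208a-3p (-1.75, unadjusted p = 0.0349 and adjusted p = 0.514 from edgeR), beside 6.94% of 749.

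Widely expressed miRNAs known to act in muscle gave no called difference among those over the filter. Of 20 listed, 18 were in the table and 17 were tested. Of the 17, 13 had a positive and 4 a negative log2 fold change (median 0.20, against 0.03 over all tested miRNAs). With or without the block 0 of the 17 passed both thresholds, beside 7.4% and 3.57% of all 392 tested miRNAs. For so few miRNAs this is near the share over all. The most abundant was miR-199a-3p, also a mesenchymal miRNA, with 75185 ± 11423 CPM in MSCTXL-Exo and 75781 ± 11238 CPM in MSC-Exo (SD, n = 3 each). The log2 fold changes, with standard errors, were -0.36 (0.23) for miR-27b-3p, 0.21 (0.35) for miR-26a-5p and 0.20 (0.26) for miR-24-3p. None of these 4 differences passed both thresholds. miR-378a-5p, under the filter with 12, 15 and 20 UMIs in MSCTXL-Exo against 4, 6 and 7 UMIs in MSC-Exo, passed them when the filter was dropped, without the block (log2 fold change 1.28, adjusted p = 0.995 from edgeR) and with it (1.22, adjusted p = 0.496). In these settings 4.54% and 6.94% of all 749 miRNAs passed. Of the smooth muscle cluster, miR-143-3p had 56983 ± 13960 CPM in MSCTXL-Exo and 65133 ± 4790 CPM in MSC-Exo (SD, n = 3 each), and its log2 fold change was -0.19 (standard error 0.21). Its sister arm miR-143-5p had -0.46 (0.35), and the partner arms miR-145-5p and miR-145-3p had -0.05 (0.28) and 0.03 (0.37). The levels of miR-143-3p in both groups were thus far above those of any striated muscle member.

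The 3 miRNAs whose levels over the 6 libraries were most like those of miR-206-3p were miR-107-3p (Pearson r = 0.97 of log2(CPM + 1)), miR-322-5p (0.90) and miR-466b-3p (0.88). These are descriptions over 6 libraries that share their depth and scaling. The range of miR-107-3p was narrow, 2314, 2673 and 2375 CPM in MSCTXL-Exo, against 2585, 2845 and 2742 CPM in MSC-Exo. miR-322-5p had 833, 1142 and 1120 CPM in MSCTXL-Exo, against 1173, 1864 and 1504 CPM in MSC-Exo. miR-466b-3p had at most 26.0 CPM in MSCTXL-Exo and at least 28.1 CPM in MSC-Exo. The groups of miR-322-5p and of miR-466b-3p did not overlap, as for 7.08% of all 749 miRNAs. All 3 miRNAs were lower in MSCTXL-Exo within every number, as were 18.4% of the 392 tested. They were picked for likeness to miR-206-3p in these same libraries, so neither trait is a separate result. The other tested member, miR-499-5p, had r = -0.47 with miR-206-3p.

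Markers of other cell types were read beside miR-206-3p. The 5 blood and immune miRNAs summed to 903 to 1016 CPM in MSCTXL-Exo and 1010 to 1188 CPM in MSC-Exo, and 0 of the 4 tested passed both thresholds. Of these 4, 2 had a positive and 2 a negative log2 fold change. The negative ones, singled out after their values were seen, were miR-142-3p and miR-223-3p, with log2 fold changes of -0.76 and -0.81. Their groups did not overlap, as was the case for 7.08% of all 749 miRNAs. For miR-142-3p, MSCTXL-Exo library 13 lay only just under MSC-Exo library 13. miR-142-3p had 87.3, 131 and 177 CPM in MSCTXL-Exo, against 228, 269 and 179 CPM in MSC-Exo, and miR-223-3p had 37.4, 47.0 and 62.8 CPM in MSCTXL-Exo, against 92.6, 87.2 and 81.0 CPM in MSC-Exo. The positive ones were miR-155-5p, the most abundant of the list, with 0.04, and miR-150-5p with 0.20. The 3 neuroendocrine miRNAs in the table, led by miR-7a-5p (-0.70), summed to 489 to 933 CPM in MSCTXL-Exo and 853 to 1426 CPM in MSC-Exo. The sums of these and of all other marker lists overlapped between the groups. They were 17.3 to 31.7 CPM in MSCTXL-Exo and 22.7 to 35.1 CPM in MSC-Exo for the erythroid list, led by miR-451-5p, and 807 to 1340 CPM in MSCTXL-Exo and 1019 to 1403 CPM in MSC-Exo for the endothelial one, led by miR-126a-3p. The liver list, led by miR-192-5p, had 338 to 558 CPM in MSCTXL-Exo and 388 to 439 CPM in MSC-Exo. The neuronal list, led by miR-128-3p, had 1496 to 1805 CPM in MSCTXL-Exo and 1431 to 1841 CPM in MSC-Exo, and the epithelial list, led by miR-205, had 29.1 to 74.8 CPM in MSCTXL-Exo and 33.5 to 50.6 CPM in MSC-Exo. 0 members of the mesenchymal list, led by miR-125b-5p, or of any other marker list passed both thresholds among the miRNAs over the filter, with or without the block. Beside this, 7.4% of all 392 tested miRNAs passed with the block and 3.57% without it. With the block and no filter 1 marker did, beside 6.94% of all 749 miRNAs. It was miR-122-3p of the liver list (log2 fold change -1.33, adjusted p = 0.557 from edgeR), which had 3, 5 and 4 UMIs in MSCTXL-Exo, against 10, 5 and 12 UMIs in MSC-Exo. The part of other cell types in the level of miR-206-3p was not tested, and fewer cells or vesicles of a type and less RNA in each cannot be told apart.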

How the data were processed

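Small RNA of MSCTXL-Exo and MSC-Exo (3 libraries each) had been sequenced after preparation with the QIAseq miRNA Library Kit. The authors trimmed with cutadapt 2.7, aligned with Bowtie 1.2.2 and deposited UMI counts per mature miRNA. The genome build and miRNA annotation release are not given in the sources used here, and the sequencer is named differently in different places. The table has 833 lines for 749 miRNAs, since 69 miRNAs have several lines with identical counts; each was used once. Another 6 columns of values per sample, a normalized unit of the authors, were not used. Column letters M and T were read as MSC-Exo and MSCTXL-Exo.

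Counts of all miRNAs were fitted with edgeR 4.0.16 in R 4.3.3: filterByExpr (minimum count 10, minimum total 15), TMM factors from 0.862 to 1.14, and, without a block, its quasi-likelihood test. Calls were made at over 2-fold with p below 0.05, unadjusted, and separately at a Benjamini-Hochberg adjusted p below 0.05 over the 392 miRNAs tested. Standard errors are the log2 fold change divided by the root of the quasi-likelihood F. Single levels were compared by exact permutation (SciPy 1.17.1), for the 7 members with at least 10 UMIs in a group. Both groups carry the numbers 10, 12 and 13. After subtraction of group means, libraries of equal number correlated at 0.431 (10), 0.166 (12) and 0.692 (13) over the tested miRNAs, although MSCTXL-Exo library 12 correlated more with MSC-Exo library 10 (0.344). With every pair over 0.1 the number was taken to pair the libraries, which no label states. The blocked value is given where it changes a call. Libraries of 1 group differed far beyond counting error (chi-square over degrees of freedom 53.5 to 198).

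Alternatives were other tools (limma-voom with limma 3.58.1, and DESeq2 1.42.0), other scaling (library totals, RLE), other filters (none, or 10 counts in each library), the block, and each library left out; the block combined with other choices or without a number was added after the data were seen. The fit was tested on simulated data. The members and the lists (relatives; muscle-acting; smooth muscle; markers of mesenchymal, blood and immune, erythroid, liver, endothelial, neuronal, epithelial and neuroendocrine cells) were chosen with earlier results of these data known. All members and relatives in the table are named, the list miRNAs by abundance or a passed threshold, and the 3 most like miR-206-3p by Pearson r; miR-122-3p, miR-142-3p, miR-150-5p, miR-223-3p and miR-378a-5p were named after their values were seen. RefSeq tables (GRCr8) gave sequences for 682 of the 749 miRNAs and 9 of the 10 members.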

Additional observations from a re-analysis of the deposited data

How the results depend on the processing

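miR-206-3p had a negative log2 fold change in every setting run. It passed both thresholds, which it did not in the comparison reported first, with DESeq2 (-1.25), limma-voom (-1.37), no filter (-1.27) and the replicate block (-1.36). It also did with the block and DESeq2 (-1.37), limma-voom (-1.35), library totals (-1.45), no filter (-1.38), or without both libraries numbered 10 (-1.28) or 12 (-1.78). By edgeR it did not pass with RLE factors (-1.25, unadjusted p = 0.0530) or library totals (-1.26, unadjusted p = 0.0507). Nor did it with at least 10 counts in every library (-1.26, unadjusted p = 0.0516). It passed without MSCTXL-Exo library 12 or MSC-Exo library 10. It did not without MSCTXL-Exo library 10 or 13, without MSC-Exo library 12 or 13, or with the block and without both libraries numbered 13. The adjusted p of miR-206-3p was 0.599 to 0.998 in all settings without the block. With the block it was 0.00649 with DESeq2, 0.0274 with no filter, 0.00228 without number 12, and 0.160 to 0.591 in the others. The same blocked settings also called more of all miRNAs by adjusted p under 0.05. They called 11 of 392 with DESeq2, 12 of 749 with no filter and 11 of 397 without number 12, against 0 or 1 in the other blocked settings. Leaving out 1 library gave -1.92 to -0.87. The number of members past both thresholds was 1 in each setting in which miR-206-3p passed, other than 2 with the block and no filter. It was 0 in the other settings, and thus 0 to 1 with 1 library left out. Of all miRNAs, 14 passed; the number was 24 with DESeq2, 9 with limma-voom, 34 with no filter, 6 with at least 10 counts in every library and 29 with the block. With the block it was 28 with DESeq2, 33 with limma-voom, 31 with library totals, 52 with no filter, and 22, 39 and 37 without numbers 10, 12 and 13. It was 6 to 38 with 1 library left out: 6 without MSC-Exo library 10 or 12, 38 without MSC-Exo library 13 and 25 without MSCTXL-Exo library 13. miR-499-5p had 0.04 to 0.52 in all settings that tested it and never passed. Of the members under the filter, several means rest on MSCTXL-Exo library 12. Without it the MSCTXL-Exo means were 2.22 CPM for miR-208b-3p, 0.65 CPM for miR-1-3p and 1.29 CPM for miR-133b-3p, each then under MSC-Exo (4.48, 3.30 and 3.13 CPM), and 0 CPM for miR-208a-3p. Without MSC-Exo library 10 the MSC-Exo mean of miR-206-5p was 1.78 CPM, under the 1.87 CPM of MSCTXL-Exo. Under library totals the members' sum was 216 CPM in MSCTXL-Exo library 13 and 533 and 788 CPM in MSC-Exo libraries 10 and 13. With 0 to 26 UMIs per library, depth limits what can be said of these 8.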
